A study of Rattus norvegicus with 218 samples.

Results

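Gad1 and Gad2, the 2 glutamate decarboxylase genes, were chosen by name from the 165 genes of a quantitative PCR panel run on rat neurons of the DMV, the dorsal motor nucleus of the vagus, which is a column of the caudal brainstem that holds the motor neurons of the vagus nerve. All rats were adult male Sprague Dawley animals. Naive rats had no surgery, sham rats were anesthetized with ketamine and xylazine and had the femoral vessels of both legs exposed but not tied, and rats with remote ischemic preconditioning (RIPC) had the same anesthesia with the femoral vessels of both legs tied and released, and brainstems of the surgical groups were taken 2.5 h after reperfusion. Neurons stained for NeuN were cut out of cryosections of the left and right DMV by laser capture, either as single neurons or as pools of several neurons, and their complementary DNA was preamplified and assayed on microfluidic chips.

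Glutamate decarboxylase makes the inhibitory transmitter GABA from glutamate. Gad1 encodes the form known as Gad67, which is found throughout the neuron, and Gad2 encodes the form known as Gad65, which is concentrated at nerve terminals, and many GABA neurons express both genes. Most DMV neurons are cholinergic and express Chat, the enzyme that makes acetylcholine, and GABA acts on them through GABA-A receptors, which are assembled from subunits such as those encoded by Gabra2 and Gabrb2.

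The value of an assay was its threshold cycle (Ct), the PCR cycle at which product became measurable. A gene with no Ct in a sample is called not detected there. After second runs of 5 neurons were averaged with the first, 213 samples were available, of which 186 had a value in at least 25% of the 168 assays and were kept: 98 single neurons and 88 pools, with 456 cells in all. The single neurons came from 9 rats and the pools from 10 rats (3 naive, 4 sham and 3 RIPC), and naive rat 3 gave 54 of the 57 naive single neurons. Assays with a value numbered 44 to 149 per single neuron (median 69) and 43 to 135 per pool (median 96), and RIPC pools had fewer (median 85) than naive pools (94.5) or sham pools (100.5). The neuronal gene Camk2a was detected in 95 of the 98 single neurons, Chat in 68, and the astrocyte gene Gfap in 79, and Gfap was likewise detected in 68 of the 88 pools. The part of neighbouring material in the values of Gad1 and Gad2 was not tested.

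Both Gad genes were detected in many DMV neurons, Gad2 in more of them than Gad1. Gad2 was detected in 46 of the 98 single neurons (46.9%, 95% Wilson interval 37.4% to 56.7%), Gad1 in 35 (35.7%, 26.9% to 45.6%), and at least 1 of them in 51 (52.0%, 42.3% to 61.7%). These intervals cover counting error over cells and not the spread between rats. Among the 165 genes, ranked by the share of single neurons with a value, Gad2 was 77th and Gad1 86th, and the median gene was detected in 40.8%. In pools, Gad2 was detected in 56 of 88 (63.6%, 80th) and Gad1 in 33 of 88 (37.5%, 106th), against 61.4% for the median gene, so that Gad1 stood lower in the order of pools than in that of single neurons. Late amplification was uncommon for both, counted before the limit on assays was applied: 0 of 69 Gad1 values and 4 of 106 Gad2 values had a Ct above 20, compared with 5.01% of all 16090 values of the panel.

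In pools, the share with Gad1 was highest in naive rats and lowest in RIPC rats, but the animals of the 3 groups overlapped and no difference passed a test over rats. Gad1 was detected in 1 of 3, 5 of 10 and 8 of 11 pools of the 3 naive rats (mean over rats 52.0% ± 19.8, SD, n = 3). It was detected in 1 of 7, 4 of 11, 6 of 11 and 5 of 17 pools of the 4 sham rats (33.7% ± 16.7, n = 4) and in 1 of 8, 1 of 8 and 1 of 2 pools of the 3 RIPC rats (25% ± 21.7, n = 3). The highest RIPC rat thus rested on 2 pools, and it lay above the lowest naive rat, which rested on 3. The difference between RIPC and naive was -27.0 percentage points (limma, SE 16.01, adjusted p = 0.996; exact permutation p = 0.30, where 0.10 was the smallest p possible), that between sham and naive -18.4 points (SE 15.0, adjusted p = 0.932) and that between RIPC and sham -8.65 points (SE 15.0, adjusted p = 0.994). With 1 rat left out at a time these differences stayed below 0 but ran from -39.5 (without RIPC rat 3) to -16.7 (without naive rat 3) for RIPC versus naive, from -27.7 (without naive rat 1) to -8.02 (without naive rat 3) for sham versus naive, and from -21.2 (without RIPC rat 3) to -1.69 (without sham rat 3) for RIPC versus sham. Of the 130 genes tested by share in pools with limma, 0 passed an adjusted p of 0.05 whichever groups were compared (0%). At an unadjusted p under 0.05, 2 genes passed for sham versus naive (1.54%), 4 for RIPC versus naive (3.08%) and 1 for RIPC versus sham (0.769%), and neither Gad gene was among them.

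Gad2 differed less between treatments than Gad1 did, by value, and the group means lay closer together than the rats within the RIPC group. It was detected in 2 of 3, 6 of 10 and 9 of 11 pools of the naive rats (69.5% ± 11.2), in 4 of 7, 7 of 11, 9 of 11 and 11 of 17 pools of the sham rats (66.8% ± 10.5), and in 3 of 8, 3 of 8 and 2 of 2 pools of the RIPC rats (58.3% ± 36.1). Exact permutation over rats gave p = 0.714 for sham versus naive (-2.67 points), p = 0.60 for RIPC versus naive (-11.2 points) and p = 0.571 for RIPC versus sham (-8.49 points). The RIPC versus naive difference ran from -32.0 points without RIPC rat 3 to -0.745 points without RIPC rat 1 or 2. The direction of the sham versus naive difference turned when naive rat 3 was left out (3.49 points) and that of RIPC versus sham when RIPC rat 1 or 2 was left out (1.92 points for either). Gad2 was present in each of the 8 RIPC pools with a Gad gene, and Gad1 together with it in 3 of them. A lower share in pools can mean fewer cells with the transcript or less transcript per cell, which a pool cannot tell apart.

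The number of detected assays moved with these shares. Of the 25 pools with a value in 25% to 50% of the assays, 1 had Gad1 (4%) and 9 had Gad2 (36%), whereas of the 63 pools with a value in at least 50%, 32 had Gad1 (50.8%) and 47 had Gad2 (74.6%). The pools of RIPC rat 1 and naive rat 1 had the fewest detected assays, with medians of 56.5 and 48. Among the 63 deeper pools Gad1 was detected in 14 of 19 from naive, 15 of 35 from sham and 3 of 9 from RIPC rats, and Gad2 in 16 of 19, 26 of 35 and 5 of 9, the same order as over all pools. Gfap and Chat had the same order over pools. The 24 pools from naive rats had Gfap in 87.5% and Chat in 91.7%. The 46 from sham rats had them in 78.3% and 82.6%, and the 18 from RIPC rats in 61.1% and 66.7%. This order was not that of most of the panel. By mean over rats, 95 of the 130 genes tested had a higher share in sham than in naive pools and 35 a lower one (median difference 7.43 points). Gad1 stood 129th of the 130 in descending order of that difference. From sham to RIPC pools the share was lower for 93 genes and higher for 37. The part of depth or of astrocyte material in the differences between treatments was not tested beyond these values.

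**Figure D1:**
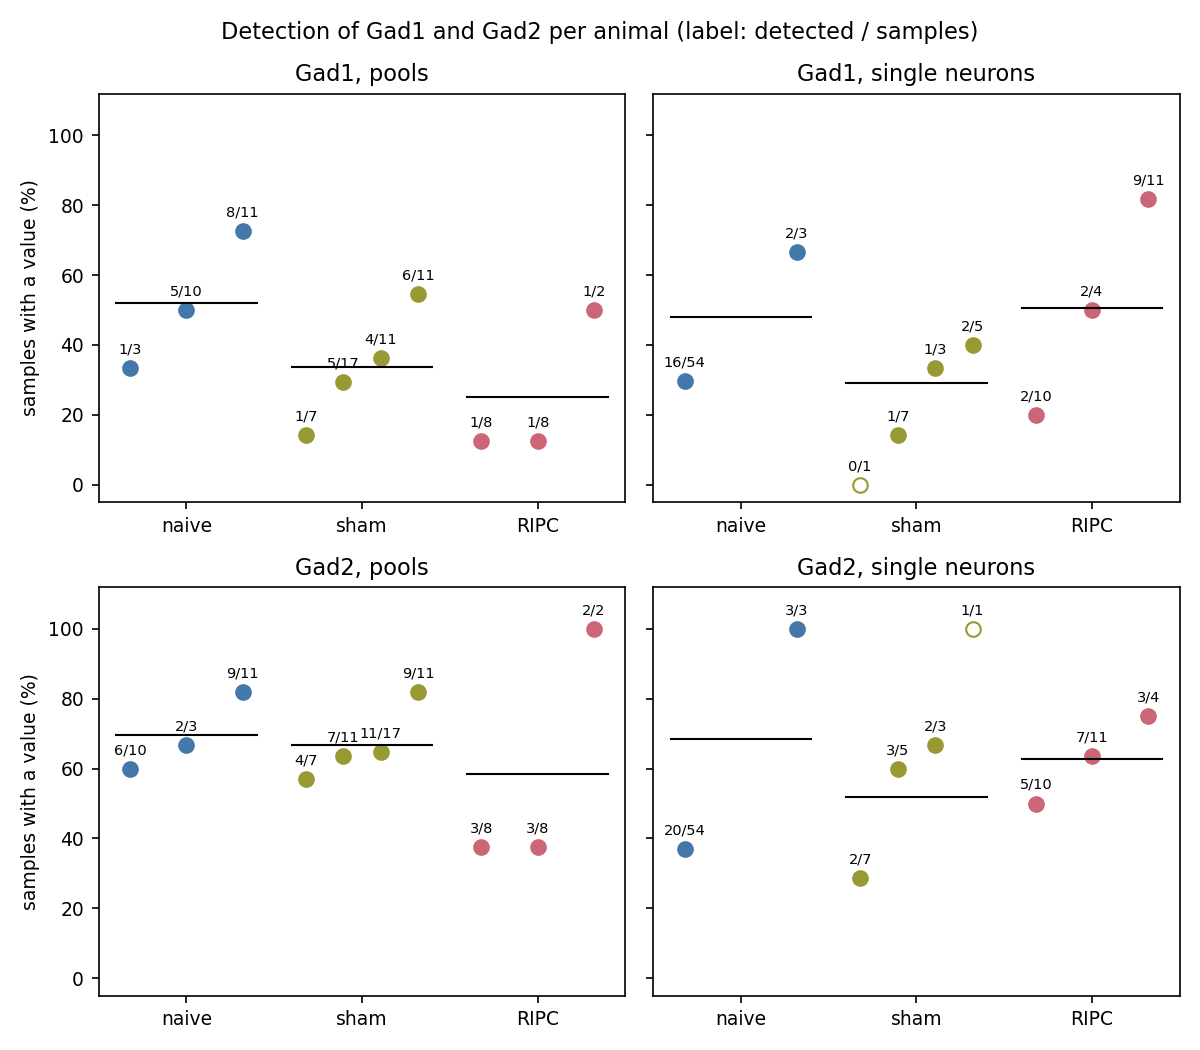
Percentage of samples with a value for Gad1 (upper panels) and Gad2 (lower panels) in each rat (points, labelled with detected and total samples) of the naive, sham and RIPC groups, for pools (left) and single neurons (right). Black lines are means over the filled points, and the open points are the 1 single neuron of sham rat 3, left out of the tests. For Gad1 in pools the means are 52.0% in naive, 33.7% in sham and 25% in RIPC, and the ranges of the groups overlap in each panel.

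In single neurons the order of the groups was another one, and again no difference passed a test over rats. Gad1 was detected in 2 of 3 and 16 of 54 neurons of naive rats 2 and 3, in 1 of 7, 1 of 3 and 2 of 5 neurons of sham rats 1, 2 and 4, and in 2 of 4, 2 of 10 and 9 of 11 neurons of RIPC rats 1, 2 and 3. The single neuron of sham rat 3 had Gad2 without Gad1 and was not used in the tests. RIPC rats therefore spanned nearly the whole range on their own, from 20% in rat 2 to 81.8% in rat 3. The labels of 1 neuron, which had both Gad genes without Chat, disagree on its rat: it was taken as one of RIPC rat 3, while its name resembles those of RIPC rat 2. Without it RIPC rat 3 had Gad1 in 8 of 10 and Gad2 in 6 of 10 neurons, and the RIPC versus sham difference for Gad1 was 20.8 points. The means over rats were 48.1% ± 26.2 (naive, n = 2), 29.2% ± 13.3 (sham, n = 3) and 50.6% ± 30.9 (RIPC, n = 3), and the RIPC versus sham difference of 21.4 points had an SE of 15.8 (limma, adjusted p = 0.908; exact permutation p = 0.40) and ran from 5.79 points without RIPC rat 3 to 36.7 without RIPC rat 2. Gad2 was detected in 3 of 3 and 20 of 54 naive, 2 of 7, 2 of 3 and 3 of 5 sham, and 3 of 4, 5 of 10 and 7 of 11 RIPC neurons of the same rats. Its means were 68.5% ± 44.5, 51.7% ± 20.3 and 62.9% ± 12.5, and the exact permutation p was 0.60 for sham versus naive, 0.90 for RIPC versus naive and 0.60 for RIPC versus sham, with 0.10 the smallest p possible in each. With naive rat 3, which alone gave over 3 naive neurons, left out, the Gad1 difference between RIPC and naive turned from 2.46 to -16.1 points, and with naive rat 2 left out the Gad2 difference turned from -5.64 to 25.8 points.

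Among the 122 genes tested in single neurons, 0 passed the adjusted threshold in any contrast (0%), and 5 (4.1%), 3 (2.46%) and 7 (5.74%) had an unadjusted p under 0.05 for sham versus naive, RIPC versus naive and RIPC versus sham, with neither Gad gene among them. Without naive rat 3 the adjusted calls were 3 for sham versus naive and 1 for RIPC versus naive, but naive rat 2 with its 3 neurons was then the sole naive rat and was assumed to vary as the rats of the other groups do. The 5 GABA-A receptor subunit genes reported here (Gabra2, Gabrb1, Gabrb2, Gabre and Gabrq), the receiving side of the pathway, had 0 adjusted calls by share or level in any treatment contrast. Their single neuron shares were higher in RIPC than in sham rats for 5 of 5 genes, by a median of 15.1 points beside 7.02 points over all 122 genes, and 1 of them, Gabra2, had an unadjusted p under 0.05 (34.0 points, SE 14.4, limma adjusted p = 0.709). In pools the same contrast was below 0 for 5 of 5, with a median of -12.6 points beside -5.90 points over all 130 genes. The other single neuron contrasts were mixed: 4 of 5 were higher and 1 lower in RIPC than in naive rats. In sham versus naive 2 were higher and 3 lower.

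Where the genes were detected, their amounts were compared as levels. A level is the Ct of the gene subtracted from the median Ct of the 35 genes detected in most samples, so that 1 unit is 1 PCR cycle and a higher level means more transcript relative to those genes, and levels of different genes are not compared because their assays differ. In single neurons the level of Gad1 had a median of -0.65 in naive (range -4.92 to 1.76, 18 neurons), 0.11 in sham (-1.72 to 1.57, 4 neurons) and 0.59 in RIPC rats (-3.09 to 1.80, 13 neurons). That of Gad2 had a median of 0.64 in naive (-5.40 to 3.57, 23 neurons), -0.11 in sham (-6.88 to 3.20, 8 neurons) and 1.65 in RIPC rats (-11.30 to 3.45, 15 neurons). The ranges of the groups overlapped almost wholly for both genes.

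In pools, the mean Gad2 level per rat was -0.95, 0.04 and -0.48 in the naive rats (mean -0.46 ± 0.49, n = 3), -1.19, -0.50, -1.90 and -3.21 in the sham rats (-1.70 ± 1.16, n = 4) and -1.40, -3.26 and -0.60 in the RIPC rats (-1.76 ± 1.36, n = 3). Both surgical groups lay lower than naive by value, with 3 of 4 sham rats and 2 of 3 RIPC rats below the lowest naive rat. The differences were -1.24 cycles for sham versus naive (limma, SE 0.75, adjusted p = 0.982; exact permutation p = 0.114), -1.29 for RIPC versus naive (SE 0.81, adjusted p = 0.941; exact permutation p = 0.20) and -0.06 for RIPC versus sham (SE 0.75, adjusted p = 0.964), and none passed the test. With 1 rat left out these ran from -1.64 (without sham rat 2) to -0.73 (without sham rat 4) for sham versus naive and from -1.87 (without RIPC rat 3) to -0.54 (without RIPC rat 2) for RIPC versus naive. For Gad1, rats with at least 2 detected pools gave means of 0.09 and -1.01 in naive and -1.66, -1.92 and -2.35 in sham, so that those naive and sham rats did not overlap, and the exact permutation p of 0.10 was the smallest that 2 rats against 3 allow (difference -1.51, p = 0.229 after adjustment over the 4 exact tests of level). With either naive rat as the sole one, the difference was -2.06 or -0.96. The rats left out of that comparison, with 1 detected pool each, had Gad1 levels of 1.13 (naive rat 1) and 0.08 (sham rat 1), and with the latter the groups would overlap. Each RIPC rat had 1 pool with Gad1, at levels of -2.23, -1.45 and 0.07, so no RIPC mean was formed and Gad1 was not among the genes tested by level with limma. Of the 99 genes tested by level, 0 passed the adjusted threshold in any contrast (0%), and 0 (0%), 4 (4.04%) and 3 (3.03%) had an unadjusted p under 0.05 in the order sham versus naive, RIPC versus naive and RIPC versus sham.

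**Figure D2:**
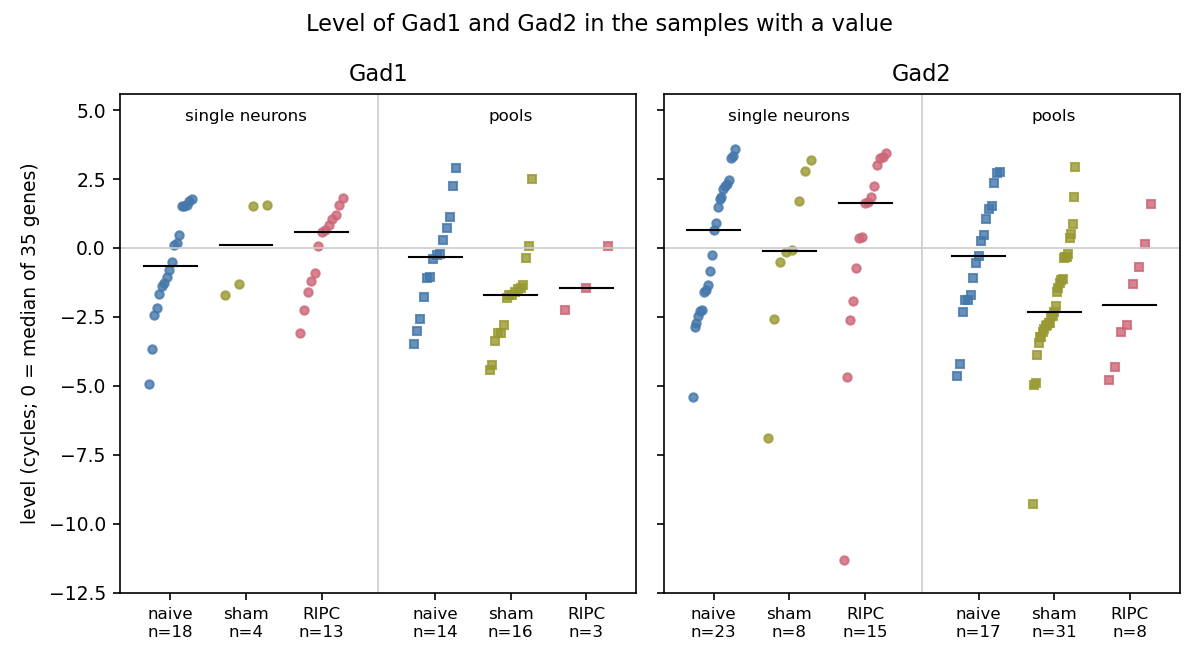
Level of Gad1 (left) and Gad2 (right) on the y axis, in PCR cycles from the median of the 35 genes detected most often, with more transcript upward, in each single neuron (circles) or pool (squares) with a value, by treatment, with black lines at the medians. Among the pools, those of naive rats have the highest Gad2 median (-0.28) and those of sham rats the lowest (-2.32), with most of their ranges shared.

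Gad1 was largely nested within Gad2. Of the 98 single neurons, 30 had both genes, 16 had Gad2 alone and 5 had Gad1 alone, so that 85.7% of neurons with Gad1 also had Gad2 (30 of 35, 95% Wilson interval 70.6% to 93.7%) and 65.2% of neurons with Gad2 also had Gad1 (30 of 46, 50.8% to 77.3%). In pools the counts were 31 with both, 25 with Gad2 alone and 2 with Gad1 alone. Joint detection was tested in the 5 rats with at least 5 single neurons by setting the share of neurons with both genes against the product of their 2 separate shares in the same rat. Both genes were found together in 25.9% of neurons of naive rat 3 (product 11.0%), 14.3% in sham rat 1 (4.08%), 40% in sham rat 4 (24%), 20% in RIPC rat 2 (10%) and 54.5% in RIPC rat 3 (52.1%). The observed share was thus above the product in 5 of 5 rats, by 10.7 ± 5.35 points on average (SD, n = 5; exact sign-flip permutation p = 0.0625, the smallest that 5 rats allow, and 0.25 after adjustment over 4 pairs). Since detection of a gene moves with the number of detected assays, the comparison was repeated within neurons above and below the median number of detected assays, where the excess was 5.93 points and was above 0 in 3 of 5 rats (exact permutation p = 0.25). Without the limit on assays 8 rats could be used, with a mean excess of 10.6 points, above 0 in 8 of 8 (exact permutation p = 0.00781, adjusted p = 0.0313). That setting adds neurons with as few as 13 detected assays, and it was not repeated within neurons of like depth. The part of depth in this excess was not tested.

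The levels of the 2 genes also ran together where both were detected. Pearson's r was 0.43 and Spearman's rho 0.52 over 30 single neurons, and 0.80 and 0.77 over 31 pools. These values are descriptions, since samples of a rat share their source and both levels share the same centring. The Gad2 level correlated inversely with that of Chat in the 24 single neurons that had both (r = -0.44, rho = -0.60), and for the Gad1 level in 18 neurons the values were r = -0.13 and rho = -0.18. Without naive rat 3 the latter were -0.32 and -0.45 over 13 neurons. In pools the correlation with Chat was -0.38 for Gad1 (rho = -0.27, 30 pools) and -0.24 for Gad2 (rho = -0.19, 51 pools).

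Chat and the Gad genes divided the single neurons into 4 classes. Of the 98 neurons, 41 had Chat without a Gad gene, 24 had a Gad gene without Chat, 27 had Chat with a Gad gene, and 6 had none of the 3 genes. Chat was detected in 27 of the 51 neurons with a Gad gene (52.9%, 95% Wilson interval 39.5% to 65.9%) and in 41 of the 47 without one (87.2%, 74.8% to 94.0%), so that more Gad neurons had Chat than lacked it. In naive rat 3, the rat with most neurons, Chat was detected in 8 of 22 neurons with a Gad gene and 29 of 32 without, and in sham rat 1 in 0 of 2 and 4 of 5. Over all rats but naive rat 3 the counts were 19 of 29 (65.5%) and 12 of 15 (80%). Gfap was detected in 32 of 41 neurons with Chat alone, 20 of 24 with a Gad gene alone, 24 of 27 with both and 3 of 6 with neither, and Camk2a in 41 of 41, 22 of 24 and 27 of 27 of the first 3 classes.

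Tested over rats, the share of neurons with Chat and a Gad gene together lay below the product of the separate shares in 4 of 5 rats. The difference was -13.1 points in naive rat 3, -16.3 in sham rat 1, 4 in sham rat 4, -5 in RIPC rat 2 and -3.31 in RIPC rat 3, with a mean of -6.75 ± 8.10 (SD, n = 5; exact permutation p = 0.1875, adjusted p = 0.25). For Gad2 with Chat the mean was -6.77 ± 7.89 (exact permutation p = 0.125, adjusted p = 0.25) and for Gad1 with Chat -0.95 ± 10.8 (exact permutation p = 0.875). Within neurons of like depth the difference for either Gad gene with Chat was -8.90 points and below 0 in 5 of 5 rats, and with a Ct above 20 counted as not detected it was -10.5 points and again below 0 in 5 of 5, with the smallest exact permutation p that 5 rats allow (0.0625) in both. Overlap was greater by count in neurons with more detected assays, since of the 14 neurons with a Gad gene and a value in at least 50% of assays, 11 also had Chat, compared with 16 of 37 at 25% to 50% of assays. Chat was likewise detected more often in the deeper neurons without a Gad gene, in 8 of 8 compared with 33 of 39. At the stricter limit of 50% of assays, neurons with Chat and a Gad gene were therefore 11 of 22 (50%), and not 27 of 98 (27.6%). Naive rat 3 gave 15 of those 22 neurons, and 5 of its 15 (33.3%) had both. The product of its separate shares was 42.7%.

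By treatment, the 4 classes in the order Chat alone, Gad alone, both and neither held 29, 15, 10 and 3 of the 57 naive neurons, 6, 3, 5 and 2 of the 16 sham neurons, and 6, 6, 12 and 1 of the 25 RIPC neurons. Neurons with Chat and a Gad gene were thus the largest class when the RIPC neurons were summed over rats, but not in each rat. They were the largest class in RIPC rats 1 and 3, in naive rat 2 and in sham rats 2, 3 and 4, while Chat alone was the largest in RIPC rat 2 (4 of 10), naive rat 3 (29 of 54) and sham rat 1 (4 of 7). As means over rats they made up 40.7% ± 36.7 of naive (n = 2), 35.6% ± 33.6 of sham (n = 3) and 53.2% ± 22.5 of RIPC neurons (n = 3), and exact permutation gave p = 1 for sham versus naive, p = 0.60 for RIPC versus naive (12.4 points) and p = 0.60 for RIPC versus sham (17.6 points), so the difference was within the spread between rats. In pools, which hold several cells, Chat occurred with a Gad gene in 53 of 88, alone in 19, and a Gad gene occurred without Chat in 5.

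**Figure D3:**
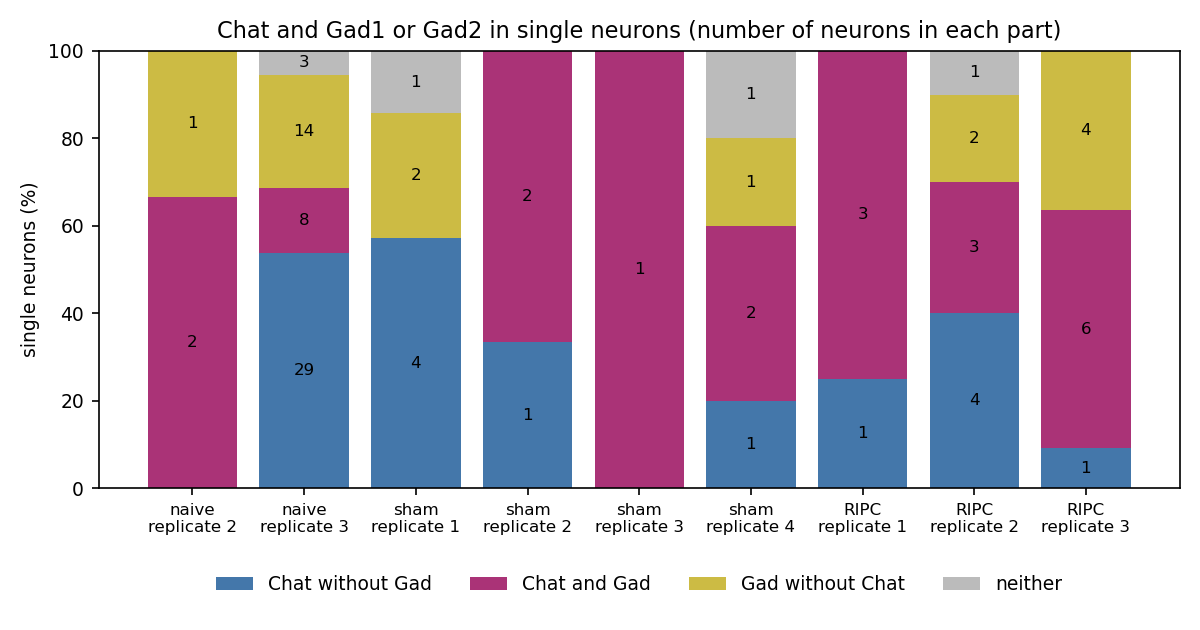
Percentage of single neurons (stacked bars, y axis from 0 to 100%) with Chat alone, a Gad gene alone, both or neither, for each rat, with the number of neurons printed in each part of a bar. Neurons with Chat alone are 29 of 54 in naive rat 3, the rat with most neurons, and neurons with both are 8 of 54 there and 12 of 25 over the RIPC rats.

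The transcript levels within the classes are given as descriptions. The Gad2 level had a median of 1.20 in 22 neurons with a Gad gene and no Chat (range -4.68 to 3.45) and of 0.10 in 24 neurons with both (-11.30 to 3.57). The Gad1 level had a median of 0.19 in 17 neurons without Chat (-2.19 to 1.80) and of -0.97 in 18 neurons with Chat (-4.92 to 1.55). Chat in turn had a median of 0.72 in 41 neurons without a Gad gene and of 0.12 in 27 with one. Each median was lower where the other transmitter's enzyme was also detected, with widely overlapping ranges. Within naive rat 3 this held for Gad1 (-2.44 in 5 neurons with Chat and 0.11 in 11 without) and Gad2 (0.64 in 7 and 0.91 in 13), whereas Chat had the higher median in the 8 neurons with a Gad gene (0.55, against 0.37 in 29 without one).

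GABA-A receptor genes were detected less often in neurons with a Gad gene alone than in neurons with Chat alone, given here as counts with no test. Gabra2, an alpha subunit, was found in 16 of 24 Gad neurons and 40 of 41 Chat neurons. Gabrb1 and Gabrb2, beta subunits, were found in 19 and 9 of the 24 Gad neurons and in 39 and 29 of the 41 Chat neurons. Gabre and Gabrq, the epsilon and theta subunits, were found in 3 and 10 of 24 and in 18 and 30 of 41. Within naive rat 3 alone, where 14 neurons had a Gad gene without Chat and 29 had Chat without a Gad gene, 5 of 5 subunit genes were again detected less often in the former, with a median difference of -28.6 points, beside a median difference of -2.59 points over the 162 panel genes other than Gad1, Gad2 and Chat, of which 59 were detected more often in the Gad neurons and 85 more often in the Chat neurons. Neurons with both Chat and a Gad gene had shares closer to those of Chat neurons, with Gabra2 in 23 and Gabrq in 22 of 27. The median number of detected assays was 65.5 in the Gad neurons, 71 in the Chat neurons and 77 in those with both, and its part in these shares was not tested.

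The genes whose detection was most like that of the Gad genes were sought over the 98 single neurons by the correlation of detection with detection, after the mean of each rat and the linear effect of the number of detected assays had been removed. Over 121 genes, Gad2 was the gene most like Gad1 and Gad1 the gene most like Gad2 (correlation 0.57), against a median gene at -0.01 for either. After Gad2, the genes most like Gad1 were Nppc, which encodes C-type natriuretic peptide (0.39), the T-type calcium channel gene Cacna1i (0.33), the somatostatin receptor gene Sstr4 (0.33) and the gastrin-releasing peptide receptor gene Grpr (0.28). After Gad1, those most like Gad2 were the somatostatin receptor genes Sstr3 (0.40) and Sstr4 (0.29), the cation channel gene Trpc6 (0.29) and the muscarinic receptor gene Chrm3 (0.26). Chat was the gene least like both, at -0.41 with Gad1 and -0.48 with Gad2. The next lowest for Gad1 was the follistatin-like gene Fstl1 (-0.38). These correlations describe neurons that share rats and chips, and the order changed with depth: among the 22 neurons with a value in at least 50% of assays, Gad1 correlated with Gad2 at 0.65 and with Chat at -0.61. Gad2 was then second to Grpr for Gad1 by a small margin (0.652 and 0.654), and Sstr4 stood at rank 16 and Nppc at rank 26 of 109. For Gad2, Gad1 was still the first, but Chat was 107th of 109 (-0.57) and no longer the last, and Sstr4 was 51st (0.02).

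**Figure D4:**
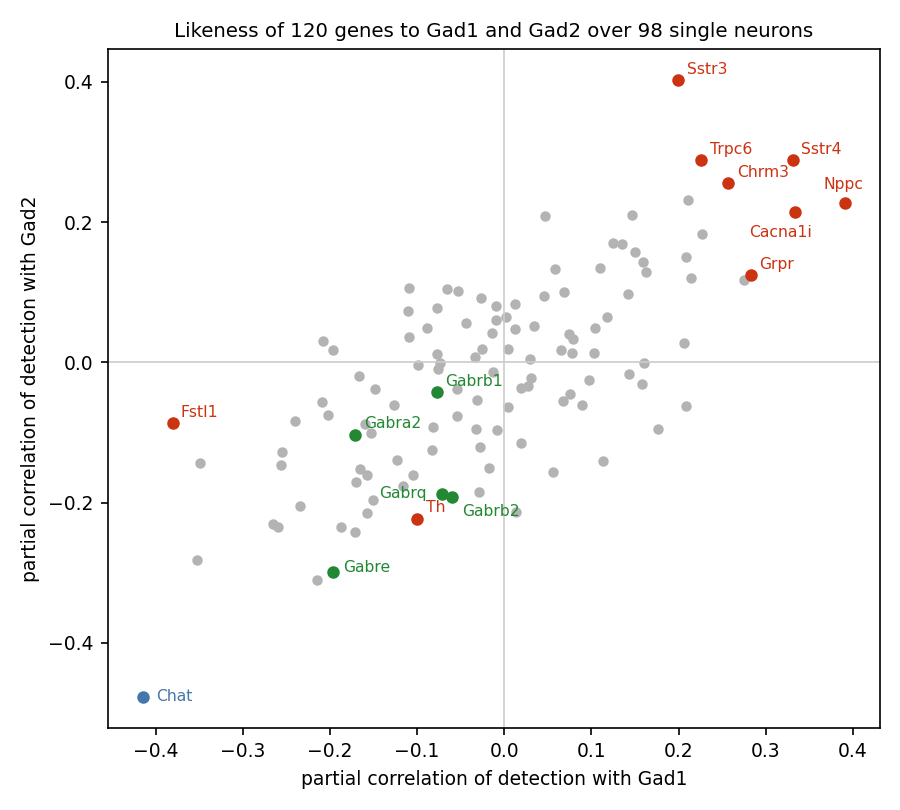
Correlation of detection with Gad1 (x axis) and with Gad2 (y axis) over 98 single neurons for the other 120 genes, after the mean of each rat and the number of detected assays were removed, with Chat in blue, GABA-A receptor genes in green and other named genes in red. Chat lies apart at the lower left (-0.41 and -0.48), and the 5 receptor genes lie below 0 on both axes.

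Left and right DMV were compared within 9 rats, each with 2 or more left and 2 or more right samples, single neurons and pools together. Gad1 had a value in 35.9% ± 18.3 of the left samples and 38.8% ± 26.6 of the right ones (SD, n = 9), and the mean difference of -2.94 points, left minus right, was within its error (limma, SE 6.83, adjusted p = 0.977; exact permutation p = 0.719). For Gad2 these shares were 55.7% ± 19.4 on the left and 60.2% ± 17.3 on the right (-4.58 points, SE 6.75, adjusted p = 0.977; exact permutation p = 0.555). Left was higher in 4 rats and right in 3 for Gad1, and left in 5 and right in 3 for Gad2, so neither side was regularly the higher. The largest differences in single rats ran toward the right, with Gad1 in 3 of 6 left and 7 of 7 right samples of RIPC rat 3 and Gad2 in 1 of 6 left and 5 of 8 right samples of sham rat 1, whereas naive rat 3, with the most samples, had Gad1 in 15 of 33 left and 9 of 32 right samples. Of 133 genes 0 passed the adjusted threshold for side (0%) and 6 had an unadjusted p under 0.05 (4.51%), and neither Gad gene was among them. Left samples had Gad1 in more cases than right samples in both naive rats (mean difference 12.2 points), and the mean differences were -4.40 points in 4 sham rats and -11.1 points in 3 RIPC rats. Differences between treatments in this side difference were not tested.

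By sample type, Gad1 was not detected in any of the 10 left RIPC pools, which allows a share of up to 30% by counting error over pools of 3 rats, which are not independent, and was detected in 3 of the 8 right ones. Naive pools had it in 9 of 13 on the left and 5 of 11 on the right, and sham pools in 9 of 24 and 7 of 22. Of the RIPC single neurons, 7 of 14 on the left and 6 of 11 on the right had Gad1. The naive single neurons had it in 11 of 29 and 7 of 28, and the sham ones in 2 of 9 and 2 of 7. For Gad2 the single neuron counts, left and right, were 14 of 29 and 9 of 28 in naive, 2 of 9 and 6 of 7 in sham, and 9 of 14 and 6 of 11 in RIPC rats. The Gad2 counts in pools were 10 of 13 and 7 of 11 in naive, 18 of 24 and 13 of 22 in sham, and 3 of 10 and 5 of 8 in RIPC rats, so that in sham rats the side with the higher Gad2 share was the right one in single neurons and the left one in pools. Differences in level between the sides were within their errors: the left minus right difference was 0.25 cycles for Gad1 (limma, SE 0.47, 8 rats, adjusted p = 0.987) and 0.06 cycles for Gad2 (SE 0.51, 9 rats, adjusted p = 0.988), and of 137 genes 0 passed the adjusted threshold (0%) and 1 had an unadjusted p under 0.05 (0.73%).

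Pools hold more cells than single neurons, and by value most genes were detected more often in them, with the Gad genes near the low end of that order. Within the 8 rats with at least 2 samples of each type, 121 of 133 genes had a higher mean share in pools, by a median of 14.9 points over all 133, and 23 genes (17.3%) passed an adjusted p of 0.05 and 46 (34.6%) an unadjusted one. The difference for Gad1 was -7.24 points (limma, SE 8.85, adjusted p = 0.571; exact permutation p = 0.422), the 129th of 133 in descending order, with pools higher in 2 of 8 rats. It ran from -14.4 points without naive rat 3 to -2.92 without RIPC rat 1. For Gad2 it was 2.67 points (SE 10.0, adjusted p = 0.850; exact permutation p = 0.859), the 114th, with pools higher in 4 of 8 rats. Neither was among the called genes. The receptor gene Gabrb2 (29.8 points, SE 9.69, limma adjusted p = 0.0451) was called, and the gene with the smallest p was Cebpa, a transcription factor gene (37.1 points, adjusted p = 0.0108). The number of genes called depended on single rats: it was 5 without sham rat 1, 12 without sham rat 4 or RIPC rat 2, 13 without naive rat 2 or 3, and 57 without RIPC rat 1, and it was 0 where a value in 50% of the assays was required.

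**Figure D5:**
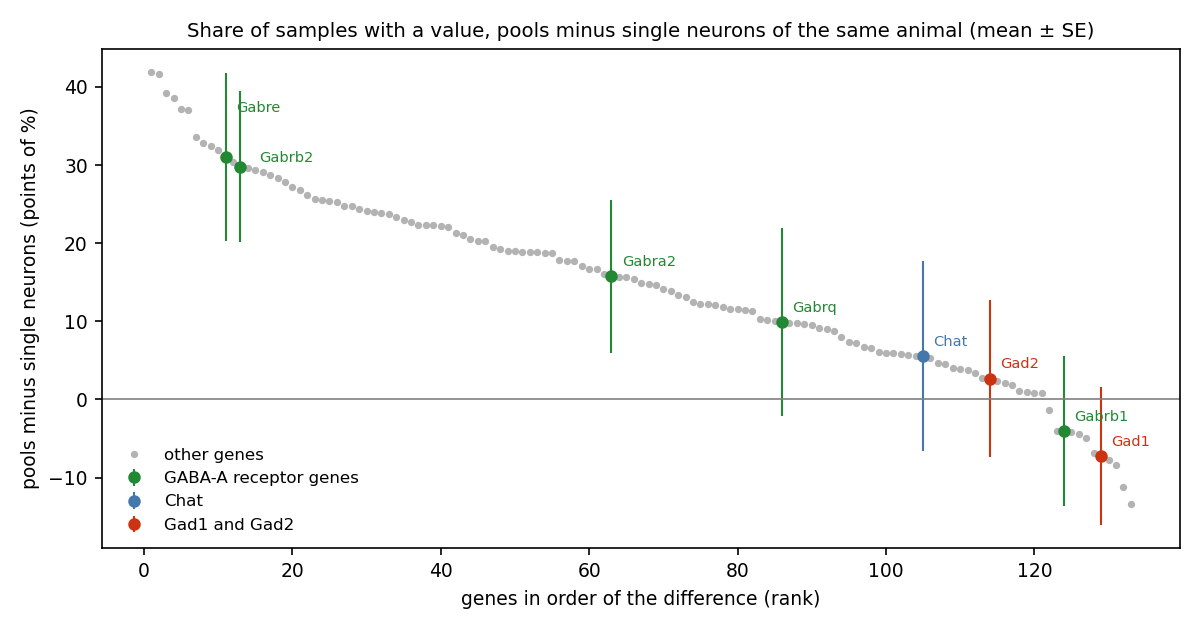
Mean difference in the share of samples with a value, pools minus single neurons of the same rat (percentage points), on the y axis for 133 genes ranked from highest to lowest on the x axis, as means over 8 rats, with the Gad genes in red, Chat in blue and GABA-A receptor genes in green and their standard errors as vertical lines. Of the 133 genes 121 lie above 0, while Gad1 lies at -7.24 and Gad2 at 2.67, both with error bars that cross 0.

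The shares in pools were also set beside those that single neurons of the same rat would give if the cells of a pool had the gene independently of each other. In naive rat 3 this came to 75.8% for Gad1 and 83.9% for Gad2, and the pools had 72.7% and 81.8%. In the other 4 rats with at least 5 single neurons the pools had Gad1 less often than so computed: 14.3% against 47.5% in sham rat 1, 29.4% against 89.8% in sham rat 4, 12.5% against 57.2% in RIPC rat 2 and 50% against 98.3% in RIPC rat 3. The last of these rests on 2 pools. Gad2 in pools was likewise below the computed share in sham rat 1 (57.1% against 74.2%), sham rat 4 (64.7% against 98.2%) and RIPC rat 2 (37.5% against 92.2%), and above it in RIPC rat 3 (100% against 92.5%). Detection was close by count between smaller and larger pools, with Gad1 in 10 of 26 pools of 2 or 3 cells and 22 of 59 pools of 4 or 5 cells, and Gad2 in 16 of 26 and 37 of 59. The pool minus single neuron difference for Gad1 averaged 13.2 points in 2 naive, -2.52 in 3 sham and -25.6 in 3 RIPC rats, a split looked at after the values had been seen, and no difference between the groups passed the test (exact permutation p = 0.30 for RIPC versus naive and 0.20 for RIPC versus sham, smallest possible 0.10).

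Detection of either Gad gene was not always repeated when the same neuron was run a second time. Of the 5 neurons run again, Gad1 had a value in 0 in both runs, in 1 in the first run alone, in 2 in the second alone and in 2 in neither. Gad2 had a value in 1 neuron in both runs, with a Ct of 15.8 each time, in 1 in the first alone, in 1 in the second alone and in 2 in neither. Chat was found in both runs in 3 neurons and in the second alone in 2. In 4 of the 5 neurons the second run had more assays with a value than the first. A single run thus did not settle whether a neuron had a Gad gene, and a value in either run counted as detected here. Whether transcript was missed in 1 run or a value in the other was spurious was not tested.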

How the data were processed

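The authors deposited Ct values of 168 assays in 218 columns, exported from the Biomark chips after preamplification with no normalization applied, and assays below detection are empty. No source used here ties samples to chips, and an effect of chip was therefore not tested. Gene symbols were kept as deposited, and all 165 matched RefSeq symbols when case was ignored. Samples were grouped by the labels, the rat was the replicate, and no source used here says how rats were spread over sessions. The study's methods state a rule that drops samples with fewer than 50% of assays detected and elsewhere speak of 25%. Samples with a value in at least 25% were kept, because this limit keeps about the number of samples the methods state, and the stated 50% was an alternative. Shares of samples with a value and mean levels per rat were compared with limma 3.58.1 in R 4.3.3 over all genes detected in 10% to 95% of samples, with Benjamini-Hochberg adjustment over all genes tested, and where a gene lacked a level in a rat the fit used the other rats. Gad1, Gad2 and their combinations were also tested by two-sided exact permutation over rats. Joint detection and likeness were computed in Python 3.11.15. On simulated data with the layout of RIPC versus naive pools, a difference of 60 points in share was recovered for 90.6% of 180 changed genes and one of 40 points for 50% of 208. The simulated pools of a group were drawn independently, so simulated rats differed by counting error alone. Further spread between rats was not simulated, and recovery in the real data can be lower. The members, the gene lists and the tests were chosen with earlier results of these data known. Genes named beside the members were Chat, the GABA-A receptor genes, Camk2a, Th, the markers of neurons and astrocytes, the 5 genes most like and the 2 least like each member, and in each comparison the gene with the smallest p where it passed. Of the genes listed for the GABA-A receptor, Gabra5 had no row in the table, nor had Nos1 of the transmitter enzymes. The result of 1 other panel gene is not reported here.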

Additional observations from a re-analysis of the deposited data

Results flagged for a closer look

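A signal of the Gad genes was present in samples that the comparisons of the report left out, except where no limit on assays was set. Of the 27 samples below the limit of 25% of assays, which had a value in 0 to 41 assays, 4 had Gad1 or Gad2, and all 4 were among the 17 single neurons, while 0 of the 10 pools had either gene. Gad2 was detected in 4 of these neurons, at levels from -2.85 to 2.57 (median 1.25), and Gad1 in 1 of them, at 1.18. Chat was detected in 6 of the 17 neurons. Among 20 sets of values over 4 or more rats that were examined for a rat apart from the others, 0 had one. The naive and RIPC groups had too few rats to be examined in this way on their own.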

How the results depend on the processing

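For Gad1, Gad2 and their joint detection, 261 values under another setting and 296 with 1 rat left out kept their direction and their side of the threshold. One value passed the threshold under another setting, joint detection of Gad1 with Gad2 without the limit on assays (10.6 points, adjusted exact permutation p = 0.0313). It was not repeated there within neurons of like depth. Direction turned for 24 values under another setting and 43 with 1 rat left out, and of these none passed the threshold in either direction. Their cause was not tested. Leaving out the neuron whose labels disagree on its rat, an alternative chosen after the data were seen, turned no direction and changed no call of these genes, and 19 genes were then called in pools minus single neurons. Depth (few detected assays per neuron) and few rats limit each of these comparisons.

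Taking single neurons and pools together, the turned values were 6.58 points for Gad1 in RIPC versus sham, 3.36 for Gad2 and 0.904 for either gene in sham versus naive, and 0.60 cycles for the Gad2 level in RIPC versus sham. Without the limit on assays they were 3.05 (Gad2) and 1.74 (either gene) in pools of sham versus naive, 1.21 (Gad2) and 8.18 (both genes) in single neurons of RIPC versus naive, 1.17 (Gad1), 7.53 (Gad2) and 8.67 (either gene) for left minus right, -0.17 cycles for the Gad2 level between sides, -1.20 for either gene in pools minus single neurons and 0.782 for Gad1 with Chat. At a limit of 50% they were 46.7 (Gad2) and 66.7 (both genes) in single neurons of RIPC versus naive, where 1 naive rat was set against 2 RIPC rats with 2 and 3 neurons, 0.058 cycles for the Gad2 level in RIPC versus sham, 0.454 for Gad1 between sides, and -0.26 and -0.12 cycles for the levels of Gad1 and Gad2 between sides, and 0 genes were called in pools minus single neurons. With a Ct above 20 as not detected they were 16.03 (Gad2) and 0.774 (both genes) in single neurons of RIPC versus naive, and 14 genes were called in pools minus single neurons, and with pools of 3 or more cells -3.22 (Gad2) and -1.13 (either gene) in pools minus single neurons.

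With each rat left out in turn, pool shares ran from -29.3 to 1.92 (Gad2) and -30.8 to 0.454 (either gene) in RIPC versus sham and from -7.67 to 3.49 (Gad2) in sham versus naive. Single neuron shares ran, in RIPC versus naive, from -16.1 to 21.0 (Gad1), -37.1 to 25.8 (Gad2), -28.0 to 31.2 (either gene), -25.2 to 15.6 (both genes) and -13.5 to 38.4 (a Gad gene with Chat), with 0 to 1 genes called. In RIPC versus sham they ran from -0.455 to 18.6 (Gad2) and -0.152 to 33.2 (a Gad gene with Chat). In sham versus naive they ran from -48.3 to 14.7 (Gad2), -48.3 to 11.0 (either gene), -37.5 to 3.28 (both genes) and -31.1 to 20.7 (a Gad gene with Chat), with 0 to 3 genes called. The Gad2 level in RIPC versus sham ran from -0.63 to 0.70 cycles. Between sides the ranges were -6.02 to 2.94 (Gad1), -7.24 to 0.576 (Gad2) and -5.91 to 1.90 points (either gene), and -0.16 to 0.49 (Gad1) and -0.22 to 0.48 cycles (Gad2). Pools minus single neurons ran from -3.34 to 8.77 (Gad2) and -4.97 to 6.26 (either gene), with 5 to 57 genes called, and Gad1 with Chat from -5.18 to 1.58.

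Rats of different groups share only a number in the labels, and same-numbered rats did not deviate together throughout (correlations -0.326 to 0.366 over 9 pairs). With the replicate block, 0 genes were called in each treatment contrast, as without it, and the Gad1 pool share differed by -27.0 points in RIPC versus naive and the Gad2 single neuron share by 23.0 points in RIPC versus sham (limma adjusted p = 0.815).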
